A study of Rattus norvegicus with 6 samples.

Results

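The genes described here encode 44 enzymes of central carbon metabolism: the glycolytic steps from glucose to pyruvate, the exchange of pyruvate with lactate and its entry into the mitochondrion, the tricarboxylic acid (TCA) cycle, the glycerol 3-phosphate shuttle and the pentose phosphate pathway. They were listed by name and pathway step with earlier results of these data known, and 40 of the 44 were measured among 13355 genes in all. Hk1, Dlst, Fh and Pgd were not analysed here, and Pcx is listed under its current symbol Pc.

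RNA was measured on 6 Affymetrix arrays, 3 from primary rat oligodendrocyte progenitor cells (OPCs) given fibrinogen for 48 h and 3 from unstimulated OPCs (control, also titled 48 h). OPCs are dividing glial cells that give rise to the myelin-forming oligodendrocytes, and fibrinogen is the clotting protein of blood plasma. The cells of both groups came from pups of postnatal day 1 to 2 and had 2 days of recovery in a medium with NT3 and PDGF, and fibrinogen was then given in differentiation medium. The medium of the controls, the strain, the sex and the number of separate cultures are not given in the labels, so the p-values measure the spread between these arrays, which may be technical.

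Glycolysis splits glucose into pyruvate with a small yield of ATP, and lactate dehydrogenase or pyruvate dehydrogenase then decides whether the carbon leaves as lactate or enters the TCA cycle. The pentose phosphate pathway branches from glucose 6-phosphate and supplies ribose for nucleotides and NADPH for lipid synthesis. Cells that make myelin use large amounts of NADPH and of citrate-derived acetyl groups, and oligodendrocytes also pass lactate to axons.

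Values are log2 expression levels, so a difference of 1 is a 2-fold difference in signal, and a fold change is fibrinogen over control. A gene is said to have risen or fallen where its adjusted p in limma was under 0.05 (Benjamini-Hochberg over all 13355 genes). Over all genes, the correlation of 2 arrays was 0.9909 to 0.9949 within a group and 0.9857 to 0.9905 between groups. Olig1, Pdgfra, Cspg4 and Sox10 of the oligodendrocyte lineage were all above the median probe of the arrays, and Olig1, Pdgfra and Cspg4 rose by 0.46, 0.58 and 0.63 on the log2 scale while Sox10 did not pass (-0.09). The log2 of their summed signal was 12.30 to 12.34 with fibrinogen and 11.83 to 11.92 in control. By contrast, 4 of 5 microglial and 3 of 3 measured endothelial and pericyte markers were below the median probe. None of the 5 neuron markers and none of the 4 measured astrocyte markers was below it. Gfap stood at 10.68 ± 0.03 with fibrinogen and 9.68 ± 0.07 in control (SD, n = 3 each). Slc1a3 rose too, while Aqp4 and Gja1 did not pass (-0.24 and -0.10). Gja1, at 5.76 with fibrinogen and 5.86 in control, was near the median probe level of 5.81.

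The enzyme genes changed in both directions. Of the 40 measured, 4 rose (Pfkm, Eno1, Ldhb and Rpia), 3 fell (Eno2, Tkt and Taldo1) and 33 did not pass. The 7 called make up 17.5% of the members, against 7.16% of all genes, of which 4.16% rose and 3.00% fell. The split of 4 higher and 3 lower became 2 higher and 6 lower when each array was centred on its median, and over all genes 555 higher and 401 lower became 434 and 516. Leaving out 1 array left 0 to 2 members higher and 1 to 2 lower, which is 2.5% to 7.5% of the members against 2.68% to 4.43% of all genes. Without fibrinogen 1 the shares were 2.5% of members and 2.68% of all genes. With the replicate number of the titles as a block they were 2.5% and 2.57%. The higher share among the members was not kept in either case. With any other single array left out, 2 or 3 members were called. That is 5.0% to 7.5% of members, against 2.83% to 4.43% of all genes. The median log2 fold change was 0.01 over the members and 0.00 over all genes, with 20 members positive and 19 negative. The fibrinogen and control arrays did not overlap for 21 of the 40 members (52.5%), against 27.0% of all genes. Neither this comparison nor that of the called shares was matched for brightness or precision. Only 2 of the 40 enzyme genes were dimmer than the median probe, against 5811 of all 13355 genes. The median SE was 0.08 over the 40 and 0.10 over all genes. The part of these differences in the higher shares was not tested. Changes were small: the 7 called genes differed between 1.25-fold and 1.58-fold, and 21 of the 40 members lay within 0.15 of 0 on the log2 scale. In bulk RNA, fewer cells of a type and less RNA per cell cannot be told apart.

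**Figure D1:**
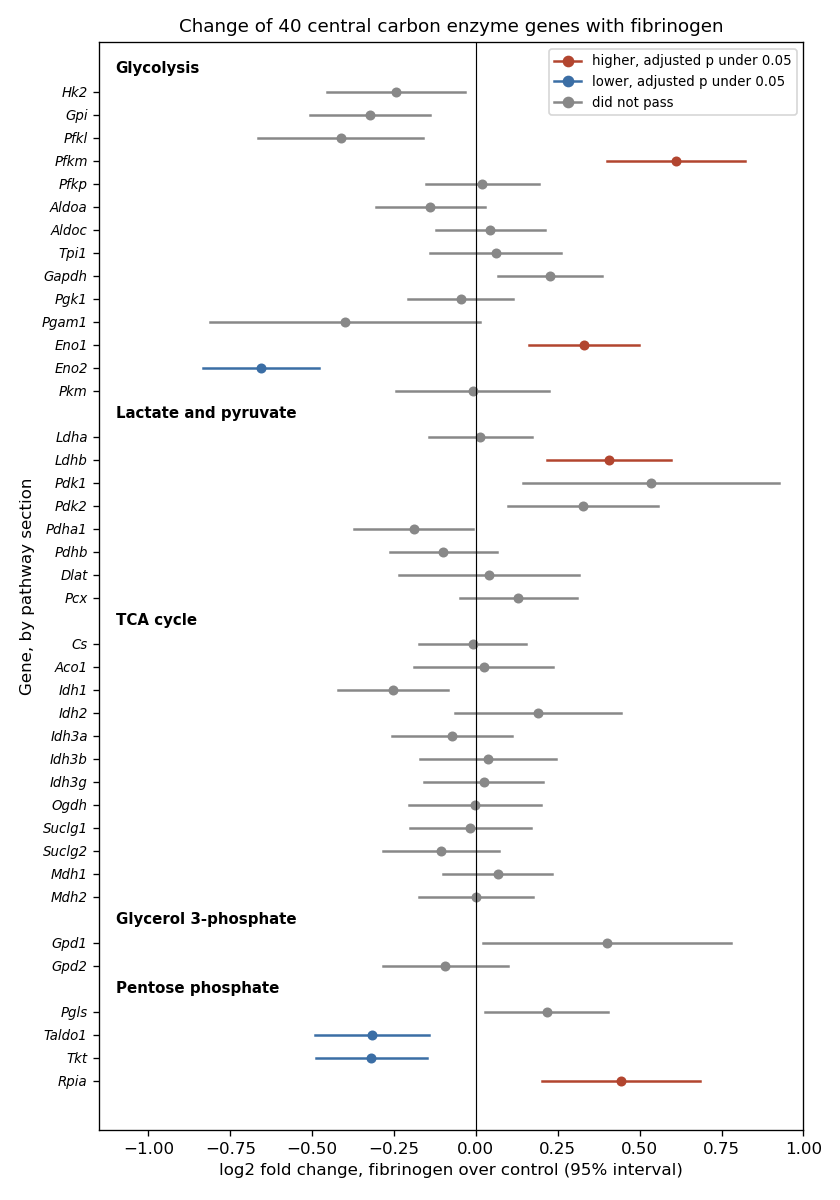
Log2 fold change (fibrinogen over control) with its 95% interval from limma for the 40 measured enzyme genes, grouped by pathway section. Genes that rose (4) and fell (3) are coloured. Eno2 lies furthest to the left at -0.66 and Pfkm furthest to the right at 0.61. None of the 12 genes of the TCA cycle section is coloured.

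By section, 2 of 14 glycolytic genes rose and 1 fell, and 1 of 8 genes around lactate and pyruvate rose. In the pentose phosphate pathway 1 of 4 rose and 2 fell. None of the 12 genes of the TCA cycle section passed in limma, where 1 (Idh1) had an unadjusted p under 0.05. This section also counts the cytosolic Aco1, Idh1 and Mdh1. Neither glycerol 3-phosphate gene passed, again with 1 under that unadjusted value. The shares called were 21.4% in glycolysis, 12.5% around pyruvate and 75% in the pentose phosphate pathway. They were 0% in the other sections and 7.16% over all genes. Sections this small do not allow their shares to be read as results about a section. The median size of the log2 change, without its sign, was 0.24 in glycolysis, 0.16 around pyruvate, 0.03 in the TCA cycle and 0.32 in the pentose phosphate pathway, against 0.12 over all genes. These sizes were not matched for brightness or precision either. The median SE was 0.08 in each of these sections and 0.10 over all genes.

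Eno1 and Eno2, the enolase genes of the list, changed in opposite directions. Enolase turns 2-phosphoglycerate into phosphoenolpyruvate; Eno1 encodes the widely expressed alpha enolase and Eno2 the gamma form known as neuron-specific enolase. The promoter sequences of the 4 called members of smallest adjusted p (Eno2, Pfkm, Ldhb and Eno1) are shown. They are the 250 bases before the transcript start in RefSeq (build GRCr8, printed 5′ to 3′ on the gene's strand), at chr4:159267221-159267470 on the minus strand for Eno2, at chr5:166002617-166002866 and chr5:166003111-166003360 on the plus strand for the pair of starts listed for Eno1, at chr7:131113849-131114098 on the plus strand for Pfkm and at chr4:177177409-177177658 on the minus strand for Ldhb. Capitals mark matches on either strand to ACGTG, the core of the hypoxia response element, or to GGGCGG, the GC box bound by SP factors.
Eno2: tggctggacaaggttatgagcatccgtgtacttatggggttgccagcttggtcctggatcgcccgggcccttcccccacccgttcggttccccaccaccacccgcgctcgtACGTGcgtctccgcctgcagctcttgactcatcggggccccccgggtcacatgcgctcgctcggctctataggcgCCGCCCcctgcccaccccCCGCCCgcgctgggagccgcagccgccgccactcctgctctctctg
Eno1 first start: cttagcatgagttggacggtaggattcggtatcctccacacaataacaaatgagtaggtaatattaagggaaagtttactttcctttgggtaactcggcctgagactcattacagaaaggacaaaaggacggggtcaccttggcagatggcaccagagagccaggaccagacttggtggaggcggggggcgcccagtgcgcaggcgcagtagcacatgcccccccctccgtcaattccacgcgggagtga
Eno1 second start: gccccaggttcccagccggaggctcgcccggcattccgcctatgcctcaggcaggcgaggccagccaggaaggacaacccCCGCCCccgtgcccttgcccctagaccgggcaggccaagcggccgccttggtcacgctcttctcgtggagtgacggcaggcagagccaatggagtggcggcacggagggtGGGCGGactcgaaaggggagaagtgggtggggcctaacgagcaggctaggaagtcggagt
Pfkm: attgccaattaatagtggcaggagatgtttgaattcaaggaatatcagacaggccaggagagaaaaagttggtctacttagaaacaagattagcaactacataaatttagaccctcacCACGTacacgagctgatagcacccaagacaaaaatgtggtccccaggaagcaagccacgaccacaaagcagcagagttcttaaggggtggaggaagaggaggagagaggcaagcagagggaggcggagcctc
Ldhb: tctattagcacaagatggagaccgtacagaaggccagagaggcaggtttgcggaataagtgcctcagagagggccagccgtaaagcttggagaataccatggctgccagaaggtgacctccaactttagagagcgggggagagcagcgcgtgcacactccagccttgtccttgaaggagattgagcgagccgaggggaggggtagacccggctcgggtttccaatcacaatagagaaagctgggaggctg

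The Eno2 window held 1 hypoxia response core and 2 GC boxes, and the Pfkm window held 1 such core. The second Eno1 window held 2 GC boxes and the first held neither motif, nor did the Ldhb window. The E-box (CACGTG on both strands, which contains the hypoxia response core) was found in none of them. Of 33469 such windows in the table, 16.6% held the hypoxia response core, 30.5% the GC box and 5.6% the E-box. The 35 members with a listed promoter had 38 windows, of which 31.6% held the core, 60.5% the GC box and 10.5% the E-box. A match describes letters in this window and was not tested against the changes.

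Eno2 (probe set 10865502) had log2 levels of 7.02, 7.11 and 7.16 in the fibrinogen arrays, against 7.72, 7.80 and 7.74 in the control arrays. Every fibrinogen array was below every control array, by more than the spread within either group. Eno2 fell 1.58-fold (log2 fold change -0.66, SE 0.08, limma adjusted p = 0.0046), and it passed under each of the 13 alternatives tried, with a highest adjusted p of 0.0341. Of 5 neuron markers measured on the same arrays, Syt1 fell by 1.16 on the log2 scale, Stmn2 rose by 0.38, and Rbfox3, Snap25 and Tubb3 did not pass. The log2 of their summed signal ran from 10.12 to 10.22 with fibrinogen and from 10.43 to 10.58 in control. Tubb3 and Syt1, the brightest in control, stood at 9.40 and 8.84 there and at 9.15 and 7.67 with fibrinogen. The part of neuronal RNA in the Eno2 value was not tested.

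Eno1 (10874152) stood at 10.99, 10.96 and 10.94 with fibrinogen, against 10.58, 10.69 and 10.63 in control. The arrays of each group lay close together and the groups were apart. Eno1 rose 1.26-fold (log2 fold change 0.33, SE 0.07, adjusted p = 0.0385), and its 3 probe sets gave changes of 0.33 to 0.34. Probe sets of one enolase gene may share sequence with its copies in the genome, so they are not independent. The call was not kept when arrays were left out: leaving out 1 array gave adjusted p-values from 0.0646 (control 2 left out) to 0.1294 (fibrinogen 1 left out).

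Phosphofructokinase, which commits sugar to glycolysis, has 3 subunit genes, of which Pfkm rose and the other two did not pass. The muscle-type subunit gene Pfkm (10898968) had levels of 7.70, 7.60 and 7.68 with fibrinogen and 6.93, 7.19 and 7.03 in control. Each fibrinogen array exceeded each control array, and Pfkm rose 1.53-fold (log2 fold change 0.61, SE 0.09, adjusted p = 0.0103). Its call was lost without fibrinogen 1 (adjusted p = 0.0526). The liver-type gene Pfkl (10829290) had 7.18, 7.07 and 7.27 with fibrinogen and 7.41, 7.75 and 7.60 in control. Its groups did not overlap either, with all fibrinogen values the lower ones, but the log2 fold change of -0.41 (SE 0.11) missed the threshold (adjusted p = 0.0691). It passed without control 1 (-0.50, adjusted p = 0.0484), without dim genes (0.0445), with quantile normalization (0.0267) and with median centring (0.0447). The platelet-type gene Pfkp did not pass, at 7.47 ± 0.01 with fibrinogen and 7.45 ± 0.07 in control (SD, n = 3 each; 95% interval of the log2 fold change -0.15 to 0.19).

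**Figure D2:**
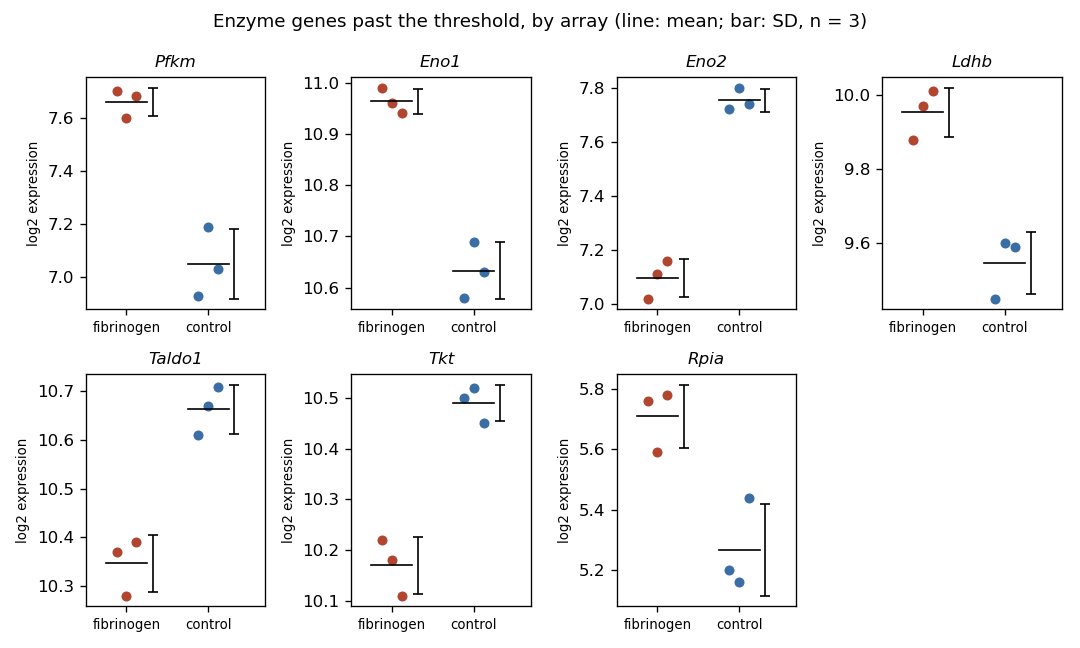
Log2 expression on each array for the 7 enzyme genes past an adjusted p of 0.05; points are arrays, lines group means and bars SD (n = 3 per group), and each panel has its own axis that does not start at 0. In all 7 panels the fibrinogen and control arrays do not overlap, with Pfkm, Eno1, Ldhb and Rpia higher and Eno2, Taldo1 and Tkt lower with fibrinogen.

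Neither of the measured genes at the top of glycolysis passed. Hexokinase 2, the inducible enzyme that traps glucose as glucose 6-phosphate, is encoded by Hk2 (10863430), which had 5.94, 5.95 and 5.84 with fibrinogen and 6.07, 6.30 and 6.09 in control. Its log2 fold change was -0.24 (adjusted p = 0.1745). Gpi (10720992), whose enzyme interconverts glucose 6-phosphate and fructose 6-phosphate, had 10.28, 10.24 and 10.25 with fibrinogen and 10.57, 10.68 and 10.49 in control. All 3 fibrinogen values of each of these genes were below all 3 control values. Gpi had a log2 fold change of -0.32 (SE 0.08) and narrowly missed the threshold (adjusted p = 0.0543). It passed when dim genes were left out (adjusted p = 0.0316) or arrays were scaled again (0.0433 with quantile normalization and 0.0344 with median centring).

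None of the genes in the middle of the pathway passed. The aldolase genes Aldoa and Aldoc, whose products split fructose 1,6-bisphosphate, had log2 fold changes of -0.14 and 0.04. Tpi1 (triose phosphate isomerase) and Pgk1 (phosphoglycerate kinase, the first ATP-yielding step) were at 0.06 and -0.05. Gapdh, the gene of glyceraldehyde 3-phosphate dehydrogenase that is often used as an expression standard, was read by 16 probe sets. Its brightest probe set (10905817) had 12.95, 12.99 and 13.02 with fibrinogen and 12.76 on each control array, a log2 fold change of 0.23 (95% interval 0.07 to 0.39) that did not pass (adjusted p = 0.1039). Of the 16 probe sets, 3 differed by 0.13 to 0.23 and the other 13 by 0.00 to 0.08. Gapdh has many near-identical copies in rodent genomes, so the level read by any one probe set is uncertain.

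Pgam1 (phosphoglycerate mutase; 10815960) had 4.62, 4.60 and 4.43 with fibrinogen and 5.36, 4.67 and 4.82 in control. The values did not overlap, yet control 1 stood well above the other control arrays, and the log2 fold change of -0.40 did not pass (adjusted p = 0.2513). Without control 1 it was -0.195. This probe set lay below the median probe, and no detection call accompanies the values. Pkm (pyruvate kinase, the last step; 10832677) had 10.90, 10.90 and 10.84 with fibrinogen and 10.70, 11.03 and 10.94 in control. The fibrinogen values fell inside the control range, with a log2 fold change of -0.01 (95% interval -0.24 to 0.22), and its 3 probe sets gave -0.03 to -0.01. The splice forms of Pkm were not analysed here.

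Of the lactate dehydrogenase genes, Ldhb rose and Ldha did not pass. Ldha encodes the subunit typical of muscle and of cells that export lactate, and Ldhb the heart-type subunit. Ldhb (10866709) had 9.88, 9.97 and 10.01 with fibrinogen and 9.45, 9.60 and 9.59 in control. The groups were apart and Ldhb rose 1.33-fold (log2 fold change 0.41, SE 0.08, adjusted p = 0.0292), a call that failed whichever array was left out (adjusted p from 0.0580 with control 2 removed to 0.1067 with fibrinogen 3 removed). Ldha (10908861) had 11.58, 11.54 and 11.56 with fibrinogen and 11.53, 11.55 and 11.56 in control. These 6 values lay within a range narrower than the step between the Ldhb groups, and the log2 fold change was 0.01 (95% interval -0.14 to 0.17). The other Ldha probe set gave -0.15, which did not pass either.

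The pyruvate dehydrogenase complex turns pyruvate into acetyl-CoA, and its kinases switch it off by phosphorylation. Neither of the listed kinase genes passed. Pdk1 (10836877) had 6.90, 6.81 and 6.75 with fibrinogen and 5.92, 6.33 and 6.61 in control, with a wide spread among the controls (log2 fold change 0.53, SE 0.17, adjusted p = 0.1166; 0.35 without control 1). Pdk2 (10746469) had 7.96, 7.85 and 8.10 with fibrinogen and 7.58, 7.58 and 7.77 in control (log2 fold change 0.33, SE 0.10, adjusted p = 0.1028). Both kinase genes thus had every fibrinogen value above every control value. Pdha1, the catalytic subunit gene (10933589), had 8.13, 7.98 and 7.98 with fibrinogen and 8.23, 8.25 and 8.18 in control. Its log2 fold change was -0.19 (adjusted p = 0.2173), and the second Pdha1 probe set gave -0.23. Pdhb, for the other subunit of that enzyme, was at -0.10, Dlat, for the acetyltransferase core, at 0.04, and Pcx (Pc; pyruvate carboxylase, which refills the cycle with oxaloacetate) at 0.13. None of these passed.

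The genes of the TCA cycle section showed small changes and none passed. Cs (citrate synthase, the entry step; 10893127) had 10.04, 10.04 and 10.03 with fibrinogen and 10.09, 10.06 and 9.99 in control, with a 95% interval of the log2 fold change of -0.17 to 0.15. The fibrinogen values lay inside the control range. Of the 12 measured genes, 10 differed by under 0.15 on the log2 scale, among them the NAD-dependent isocitrate dehydrogenase subunit genes Idh3a, Idh3b and Idh3g at -0.07, 0.04 and 0.02. Ogdh (2-oxoglutarate dehydrogenase) was at 0.00, the succinyl-CoA ligase genes Suclg1 and Suclg2 at -0.02 and -0.11, and the malate dehydrogenases Mdh1 (cytosolic) and Mdh2 (mitochondrial) at 0.07 and 0.00. Aco1, the cytosolic aconitase that also binds RNA as an iron sensor, was at 0.02. The mean log2 level of the 12 genes was 9.43 ± 0.01 with fibrinogen and 9.44 ± 0.04 in control (SD, n = 3 each).

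The NADP-dependent isocitrate dehydrogenases lie beside the cycle and make NADPH. Idh1, the cytosolic form (10928563), had 10.44, 10.51 and 10.41 with fibrinogen and 10.68, 10.74 and 10.70 in control. Its fibrinogen values were all lower, with a log2 fold change of -0.25 (SE 0.07) that did not pass (adjusted p = 0.0857). It passed when arrays were centred on their medians (-0.30, adjusted p = 0.0473) or dim genes were left out (adjusted p = 0.0499). Idh2, the mitochondrial form, was at 8.74 ± 0.06 with fibrinogen and 8.55 ± 0.19 in control (SD, n = 3 each), and its groups overlapped; its log2 fold change of 0.19 was 0.11 without control 1 and 0.295 without control 3. In the glycerol 3-phosphate shuttle, which passes cytosolic NADH to the respiratory chain and supplies glycerol for lipids, cytosolic Gpd1 was at 0.40 and mitochondrial Gpd2 at -0.09. Neither passed (95% intervals 0.02 to 0.78 and -0.28 to 0.10), and the Gpd1 groups overlapped. Leaving out 1 array moved the Gpd1 value to 0.24 (control 3) or 0.55 (control 1).

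Of the pentose phosphate genes, Tkt and Taldo1 fell and Rpia rose. Tkt and Taldo1 encode transketolase and transaldolase, which shuttle carbon between pentoses and glycolysis in the non-oxidative arm. Tkt (10786465) had 10.22, 10.18 and 10.11 with fibrinogen and 10.50, 10.52 and 10.45 in control. Taldo1 (10712299) had 10.37, 10.28 and 10.39 with fibrinogen and 10.61, 10.67 and 10.71 in control. Both fell 1.25-fold with no overlap (log2 fold change -0.32 for each, adjusted p = 0.0434 for Tkt and 0.0487 for Taldo1). Neither call survived the removal of any single array, with adjusted p between 0.0930 and 0.1429 for Tkt and between 0.0740 and 0.1591 for Taldo1.

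Rpia, for the isomerase that makes ribose 5-phosphate (10863079), went the other way, with 5.76, 5.59 and 5.78 with fibrinogen and 5.20, 5.16 and 5.44 in control. It rose 1.36-fold (log2 fold change 0.44, SE 0.10, adjusted p = 0.0479), from a probe set below the median of the arrays. The call was kept when control 3 was left out and lost for every other array left out (adjusted p up to 0.1560, for fibrinogen 1), and lost with median centring (0.0652). Pgls (6-phosphogluconolactonase of the oxidative arm; 10787328) had 9.27, 9.26 and 9.36 with fibrinogen and 8.98, 9.11 and 9.15 in control. Its groups were apart, and its log2 fold change of 0.22 did not pass (adjusted p = 0.1747). All 4 measured genes of the pathway had groups that did not overlap, 2 in each direction. Over all genes the groups did not overlap for 27.0%. The same held for 9 of 14 glycolytic genes (64.3%) and 6 of 8 genes around pyruvate (75%). It held for 2 of 12 genes of the TCA cycle section (16.7%) and 0 of 2 glycerol 3-phosphate genes. On the same arrays all 4 measured cell cycle markers (Top2a, Ccnb1, Cdk1 and Plk1) rose, and their log2 summed signal was 11.40 to 11.46 with fibrinogen and 10.96 to 11.02 in control; their part in the ribose-making genes was not tested.

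Unequal change within a pair of genes was tested for 11 of 12 listed pairs (Hk2 and Hk1 could not be paired), as the within-array difference of the log2 values. The fibrinogen and control arrays were apart for 7 of the 11 pairs. With 3 arrays against 3, the two-sided exact permutation test cannot go below p = 0.1, which these 7 pairs reached (0.1571 after Benjamini-Hochberg over the 11), so none can pass. Each SE of a pair comes from the spread of its own 3 differences per group, not from limma. It cannot be set beside the SE of a single gene. The log2 fold change of Pfkl minus that of Pfkm was -1.02 (SE 0.05), and that of Eno2 minus Eno1 was -0.99 (SE 0.06), the first gene of each pair being the one with the negative change. The same difference was -0.59 for Pfkp minus Pfkm (SE 0.05), -0.44 for Idh1 minus Idh2 (SE 0.11) and -0.39 for Ldha minus Ldhb (SE 0.06). It was 0.49 for Gpd1 minus Gpd2 (SE 0.18) and 0.18 for Aldoc minus Aldoa (SE 0.05). For Pdk1 and Pdk2, Aco1 and Cs (genes of different steps), Suclg2 and Suclg1, and Mdh1 and Mdh2 the arrays overlapped. These are differences in change; probe sets of different genes do not allow their levels to be compared.

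**Figure D3:**
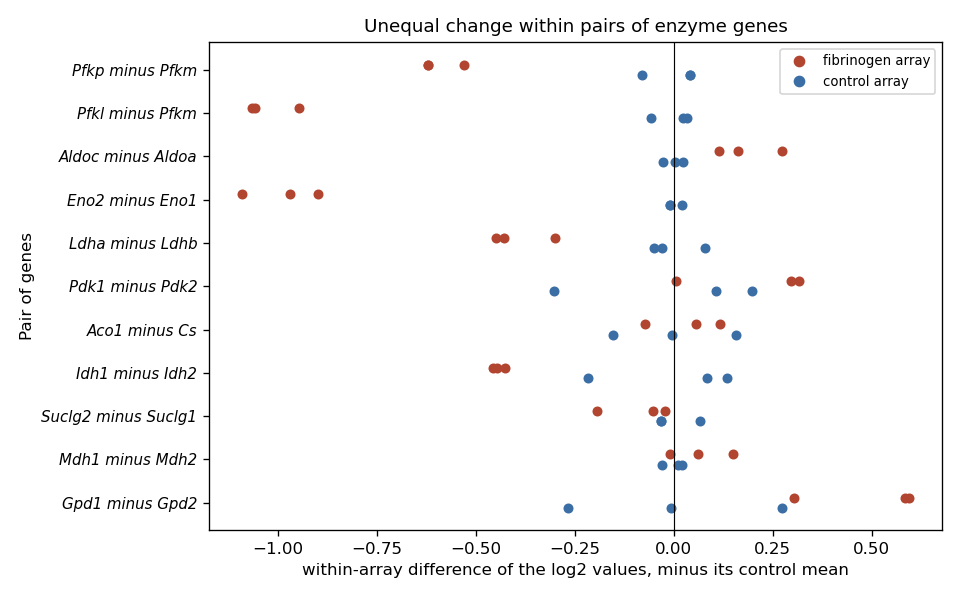
Within-array difference of the log2 values of 2 genes, minus the mean of that difference over the control arrays, for 11 pairs; each point is an array, fibrinogen drawn above control in each row. The fibrinogen points of Pfkl minus Pfkm run from -1.07 to -0.95 and those of Eno2 minus Eno1 from -1.09 to -0.90, clear of the control points, and 4 pairs overlap.

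Genes of the same pathways outside the enzyme list were read in the same fit: of 59 listed, 53 were measured and the other 6 were not analysed here. Of the 53, 1 rose, 6 fell and 46 did not pass, so 13.2% were called, against 7.16% of all genes. The groups did not overlap for 39.6% of the 53, against 27.0% of all genes. These shares were not matched for brightness either. Of the 6 that fell, Me1, Acly and Slc25a1 act where citrate and malate leave the mitochondrion and feed lipid synthesis. Me1 (cytosolic malic enzyme, which makes NADPH from malate) had 8.03, 8.14 and 7.99 with fibrinogen and 9.23, 9.24 and 9.06 in control. It fell 2.18-fold (log2 fold change -1.12, SE 0.09, adjusted p = 0.0017). Acly (ATP citrate lyase, which cleaves citrate to acetyl-CoA) had 10.03, 9.94 and 10.07 with fibrinogen and 10.76, 10.76 and 10.56 in control, and fell 1.60-fold. Slc25a1 (the mitochondrial citrate carrier) had 8.38, 8.33 and 8.37 with fibrinogen and 9.02, 8.87 and 8.95 in control, and fell 1.50-fold. Its log2 fold change of -0.59 was smaller, at -0.43, when the mean of its probe sets was used. Adjusted p was 0.0059 for Acly and 0.0057 for Slc25a1, and all 3 genes had every fibrinogen array below every control array and passed under each of the 13 alternatives.

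Got1, the cytosolic aspartate aminotransferase of the malate-aspartate shuttle, had 8.36, 8.37 and 8.49 with fibrinogen and 8.96, 8.93 and 8.71 in control. It fell 1.38-fold (adjusted p = 0.0317), a call kept when control 3 was left out and lost for every other array left out (adjusted p up to 0.1151, for fibrinogen 1). Got2, its mitochondrial counterpart, was at -0.13 and did not pass. Pdp2, a phosphatase that reactivates pyruvate dehydrogenase, had 6.99, 7.15 and 6.81 with fibrinogen and 7.80, 8.04 and 7.76 in control. It fell 1.84-fold (log2 fold change -0.88, SE 0.12, adjusted p = 0.0071) and passed under each of the 13 alternatives. Pdp1, the other phosphatase gene, was at 0.20, and the kinase genes Pdk3 and Pdk4 were at 0.34 and 0.01; none of them passed (Pdk3 adjusted p = 0.0695).

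The genes of the bifunctional enzymes that set fructose 2,6-bisphosphate, an activator of phosphofructokinase, included 1 that rose and 1 that fell. Pfkfb4 had 6.37, 6.39 and 6.38 with fibrinogen and 7.17, 6.93 and 6.98 in control, and fell 1.57-fold (log2 fold change -0.65, SE 0.09, adjusted p = 0.0068). Pfkfb3 had 7.73, 7.77 and 7.64 with fibrinogen and 7.32, 7.42 and 7.36 in control. It rose 1.27-fold (adjusted p = 0.0392), a call that failed whichever array was left out (adjusted p from 0.0691 for control 2 to 0.1359 for fibrinogen 2) and with quantile normalization (0.0511) or median centring (0.0566). Pfkfb1 and Pfkfb2 were at -0.01 and 0.00. Slc2a1, the glucose transporter GLUT1, was at 8.21 ± 0.12 with fibrinogen and 8.62 ± 0.15 in control (SD, n = 3 each; log2 fold change -0.41, adjusted p = 0.0670). The mitochondrial pyruvate carrier genes Mpc1 and Mpc2 were at -0.26 and -0.08, and the succinate dehydrogenase genes Sdha, Sdhb, Sdhc and Sdhd between 0.06 and 0.11. None of these passed.

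**Figure D4:**
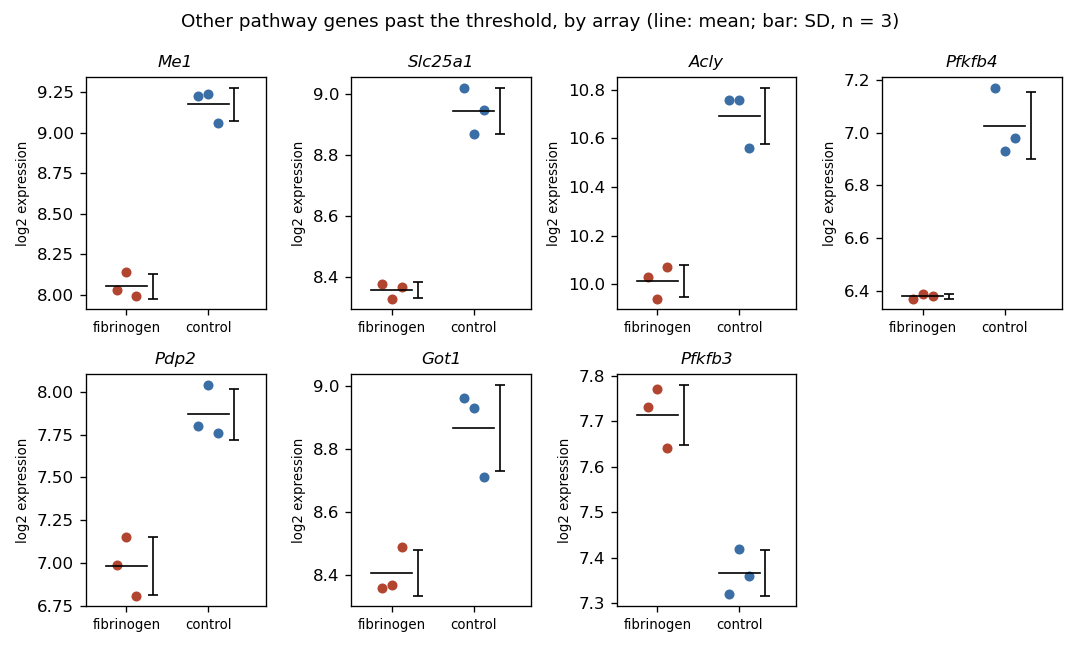
Log2 expression on each array for the 7 genes of the same pathways, outside the enzyme list, that were past an adjusted p of 0.05; points are arrays, lines group means and bars SD (n = 3 per group), and each panel has its own axis that does not start at 0. Pfkfb3 is higher with fibrinogen and the other 6 are lower, with Me1 at 7.99 to 8.14 against 9.06 to 9.24 in control.

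Further gene lists were read on the same arrays. Of 8 genes induced by low oxygen, many of which respond together with glycolytic genes, Egln3 (an oxygen-sensing prolyl hydroxylase) rose by 0.89, Bnip3 (a mitochondrial stress protein) fell by 0.58 on the log2 scale and 6 did not pass. The log2 summed signal of the 8 was 10.22 to 10.33 with fibrinogen and 10.52 to 10.68 in control. Bnip3 is the brightest of them, at 9.11 with fibrinogen and 9.69 in control. Of 4 measured markers of mature oligodendrocytes, Mbp, Mag and Cnp fell, and their log2 summed signal was 12.38 to 12.51 with fibrinogen and 12.84 to 12.94 in control. Of 4 measured astrocyte markers, Gfap and Slc1a3 rose (by 1.00 and 0.61 on the log2 scale), and Aqp4 and Gja1 did not pass, at -0.24 and -0.10. The log2 summed signal of the 4, of which Gfap and Slc1a3 are the brightest, was 11.26 to 11.29 with fibrinogen and 10.49 to 10.57 in control. The part of a changed cell makeup in the enzyme genes was not tested.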

How the data were processed

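Total RNA of 3 fibrinogen and 3 control OPC samples was hybridised to Affymetrix arrays after NuGEN amplification and biotin labelling, per the labels' protocols. The authors deposited 1 table of log2 values per probe set and array. The submitters' processing notes name RMA (background correction, quantile normalization and probe summary) and limma; versions, settings and build are not given in the sources used here. RMA compresses changes of dim and very bright probes. Of 26312 probe rows, 23631 have values. The array median was 5.84 on each fibrinogen array and 5.78, 5.8 and 5.8 on control arrays 1, 2 and 3, a group difference that median centring removes. Of the rows with values, 14083 carry 1 gene symbol in the platform annotation (228 carry several and 9320 are unnamed here). The brightest probe on average stood for each of 13355 genes.

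Groups were taken from the titles and compared with limma 3.58.1 in R 4.3.3 (lmFit, eBayes, two-sided, no covariate), with Benjamini-Hochberg adjustment over all genes. Precision is set by the number of arrays: the median SE of a log2 fold change was 0.10 over all genes and 0.08 over the members. Alternatives were the mean of a gene's probes, a filter on dim genes, quantile normalization, median centring, an intensity trend, all probe rows, the replicate number as a block and leaving out each array. The members and lists were chosen with earlier results of these data known. Named with every array's value were members past the threshold, up to 10 more without overlap by smallest p, Gapdh, Ldha, Pkm and Cs; and of the other pathway genes up to 10 past the threshold. Promoters are from RefSeq (GRCr8), for at most 4 called members of smallest adjusted p; 35 of the 40 members matched.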

Additional observations from a re-analysis of the deposited data

How the results depend on the processing

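Of the 7 enzyme genes called, Eno2 passed under each of the 13 alternatives and Pfkm under 11. Ldhb passed under 6, Taldo1, Tkt and Rpia under 5 each and Eno1 under 4. No called gene changed direction under any of them. Some alternatives bring fewer arrays or more rows. Eno1 and Rpia also lost their calls with median centring, which brings neither. The replicate block brings neither as well, and under it every call but that of Eno2 was lost. The cause of the lost calls was not tested. The counts of enzyme genes that rose and fell were 4 and 3, against 2 and 6 with median centring, 8 and 7 with an intensity trend, 2 and 1 with all probe rows tested, 4 and 5 with quantile normalization and 4 and 6 without dim genes. Leaving out 1 array gave 0 to 2 that rose and 1 to 2 that fell. Over all genes 555 rose and 401 fell, against 434 and 516 with median centring, which turns the split, 947 and 692 with the trend, and 208 to 379 and 150 to 239 with 1 array left out. Of the other pathway genes, 1 rose, against 0 with quantile normalization, median centring, all probe rows or any array left out (0 to 0), 2 without dim genes and 3 with the trend. The replicate numbers in the titles were not borne out as pairs: deviations of same-numbered arrays correlated at 0.02, -0.14 and -0.07, and none of the 3 fibrinogen arrays correlated best with its own number. With the replicate number as a block, 0 enzyme genes rose and 1 (Eno2) fell, 0 other pathway genes rose, and over all genes 199 rose and 144 fell. The mean log2 level of the glycolytic genes differed by -0.07, against -0.11 with median centring, and that of the TCA cycle genes by -0.01, against -0.037 with quantile normalization and -0.057 with median centring. Under an intensity trend Gpi, Pfkl, Aldoa, Gapdh, Pdk1, Pdk2, Idh1 and Pgls also passed. No detection call accompanies the values, so the depth of signal over background is unknown, which bears on Pgam1 and Rpia, below the median probe.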
